A study of Mus musculus with 6 samples.

Results

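CD4 T cells of mouse brain tumors were described from droplet-based 3' single-cell RNA sequencing of leukocytes. UMIs (unique molecular identifiers) count captured RNA molecules, and 18066 CD45+ cells had 200 or more detected genes and no more than 10% of UMIs from mitochondrial genes. Of these, 67 were taken as CD4 T cells, 48 of 9352 in library 1 and 19 of 8714 in library 2. A member had at least 2 UMIs of Cd3e, Cd3d and Cd3g together and at least 1 of Cd4. It had no UMI of Cd8a or Cd8b1 and at most 2 of the macrophage genes C1qa, C1qb and C1qc together, with under 0.5% of its UMIs from the neutrophil genes S100a8 and S100a9. The members made up 0.513% of library 1, with a 95% exact Clopper-Pearson interval of 0.379% to 0.680%, and 0.218% of library 2, with an interval of 0.131% to 0.340%. All such intervals cover counting error only.

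SB28, a mouse glioma cell line, was grown in mice, and the tissue was collected on day 18 after an injection of 10000 cells. CD45+ tumor leukocytes, neutrophils sorted from tumor and neutrophils sorted from blood were each sequenced as 2 libraries, with 37490 barcodes in all. The results below use the 2 CD45+ tumor libraries, whose groups differ in no treatment or genotype; the labels used here name no strain, age or sex. The mice had been perfused, and the tumor is 1 transplanted line. Whether the numbered samples were separate mice is not stated in the labels, and they may be technical repeats. A p-value here rests on 2 samples and on variance estimates shared across genes. It does not measure the spread between mice, nor a gene's own spread between the samples alone.

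CD4 T cells recognise peptides on class II molecules and pass signals to other leukocytes through cytokines and contact receptors. Regulatory T cells, a CD4 lineage defined by the transcription factor Foxp3, restrain other T cells, partly through the receptor CTLA-4 and through uptake of interleukin-2 by its receptor chain CD25 (Il2ra). They are a common part of the T cells within tumors, where they often carry high levels of co-stimulatory receptors such as ICOS and OX40 (Tnfrsf4).

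The members held 337074 UMIs in library 1 and 164640 in library 2, with medians of 4689 and 5526 per cell. All other CD45+ cells had medians of 6630 and 11711, and phagocytes, cells with at least 3 C1q UMIs and no CD3 UMI that numbered 4189 and 4736, had 10407 and 16915.5. The sums of the members differed between libraries by more than the counting noise of UMIs, with a chi-square of 2.88 per degree of freedom over 6797 genes. That statistic treats UMIs as independent and leaves out the noise of sampling few cells. The first CD45+ library shared 35 cell barcodes with the second and 162 with a sorted tumor library, and 1 member carried such a barcode. The same gate found 0 and 0 cells in the sorted tumor libraries and 0 and 1 in the sorted blood libraries.

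The genes that chose the cells were low in absolute terms. Cd4 stood at 231 CPM, the UMIs of a gene scaled to a fixed total per set, in each library, and 29 of the 48 and 8 of the 19 members had a single Cd4 UMI. Cd3e, a chain of the T cell receptor complex, stood at 190 and 219 CPM. At the CD3 limit, 7 and 2 members had exactly 2 CD3 UMIs, while 7 and 0 cells met every other condition with 1. At the C1q limit the edge was crowded. In libraries 1 and 2, 7 and 3 members had 2 C1q UMIs, and 62 and 30 cells that met every other condition had 3 or more and were left out. Scrublet scores placed 2 and 1 members among likely doublets. Genes of the T cell receptor and its signalling outside the gate, such as Trac at 312 and 316 CPM and the adhesion receptor gene Cd2 at 371 and 419 CPM, go with the gate and are given as description only.

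Foxp3 (mm10 X:7573644-7595245, plus strand) and Icos (mm10 1:60977927-61000320, plus strand) were not used by the gate, and both were present. A Foxp3 UMI was found in 20 of 48 members (41.7%, interval 27.6% to 56.8%) and in 12 of 19 (63.2%, interval 38.4% to 83.7%). The libraries' intervals overlap. None of the 114 and 60 CD8 T cells, taken by the same gate with a Cd8 UMI and no Cd4 UMI, had one, with exact upper limits of 3.18% and 5.96%. NK cells (0 of 95 and 0 of 58, upper limits 3.81% and 6.16%) and B cells (0 of 184 and 0 of 52, upper limits 1.98% and 6.85%) had none either. Phagocytes, which should lack the gene, had a Foxp3 UMI in 0.263% and 0.211% of cells, at the greater depth per cell given above.

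**Figure D1:**
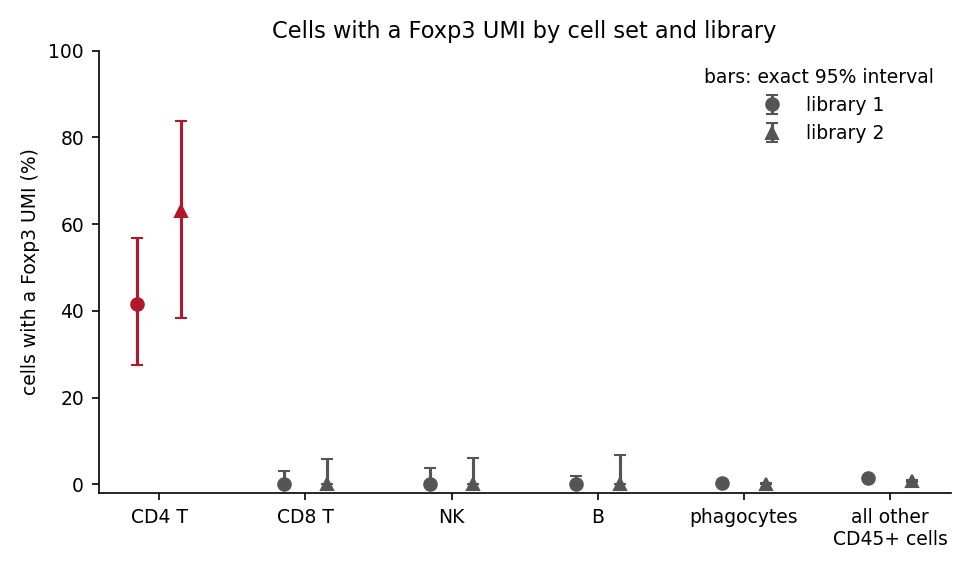
Percent of cells with at least 1 Foxp3 UMI (vertical axis) for CD4 T cells, CD8 T cells, NK cells, B cells, phagocytes and all other CD45+ cells, with circles for library 1, triangles for library 2 and bars for exact 95% intervals. CD4 T cells stand at 41.7% and 63.2%, all other CD45+ cells at 1.45% and 0.794%.

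These shares depend on depth, since most positive cells carried few Foxp3 UMIs. The highest member had 5 in library 1 and 6 in library 2, and 7 and 3 members had exactly 1. With each member thinned to 1000 UMIs, the expected share was 13.5% and 25.2%, and at 2000 UMIs it was 24.3% and 38.3%. Members with no Foxp3 UMI may therefore still express the gene.

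The gate held a minority of the Foxp3-positive cells of the tumors. A Foxp3 UMI was seen in 155 and 81 CD45+ cells, of which 12.9% and 14.8% were members. Cells with at least 2 CD3 UMIs but no UMI of Cd4 or of Cd8 were the largest of the classes counted, with 60 and 35 Foxp3-positive cells (38.7% and 43.2%). A further 29 and 14 had Cd4 and CD3 UMIs but 3 or more C1q UMIs. Only 11 and 5 had at least 2 CD3 UMIs and a Cd8 UMI, 10 and 2 had 1 CD3 UMI, and 25 and 12 had none. Those 11 and 5 fell outside the CD8 T cell set, which also limits Cd4, C1q and S100 UMIs. The absence of Foxp3 UMIs from that set holds within those limits.

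The members were then set against all other CD45+ cells, a mixture in which phagocytes were the most numerous of the sets taken here. Phagocytes held 59.8% and 70.8% of the UMIs of all passing cells in libraries 1 and 2, so the summed reference is mostly theirs. UMIs were summed per library and cell set and tested with edgeR's quasi-likelihood test with the library as a block, so that each member sum was read against the other cells of its own library. Called means a Benjamini-Hochberg adjusted p under 0.05 over 15472 genes. Of these, 13.2% were called, 5.02% higher and 8.15% lower in CD4 T cells, 776 and 1261 genes. The split depended on the method: without the block 348 were higher and 203 lower, by the DESeq2 Wald test 604 and 441, and with no limit on C1q 854 and 836. The median log2 fold change of all genes was -0.36 with edgeR and -0.08 with DESeq2.

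Genes of the regulatory T cell program stood high in the members. Of 24 genes tested on this list, 17 were higher in CD4 T cells and 0 lower, with a median log2 fold change of 3.83 against -0.36 for all genes. Without the block 14 were higher, with DESeq2 16, and with C1q at 0 UMIs 13. Foxp3 itself stood at 139 and 243 CPM in CD4 T cells, against 3.8 and 1.22 CPM in all other cells. Its log2 fold change was 6.0 ± 0.38 (SE from the edgeR fit, not the spread of the 2 libraries, edgeR adjusted p = 1.2e-52). The sets did not overlap in any library.

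Ikzf2 (mm10 1:69531214-69687245, minus strand), encodes Helios, a transcription factor of regulatory T cells. It stood at 1457 and 1148 CPM in CD4 T cells, against 56.2 and 28.2 CPM in all other cells, and was 4.66 ± 0.24 higher on the log2 scale. Ctla4, the inhibitory receptor, stood at 748 and 1342 CPM in CD4 T cells and 30.9 and 16.9 CPM in the others (5.09 ± 0.26). Il2ra stood at 507 and 474 CPM in CD4 T cells and 25.2 and 10.8 CPM in the others (4.51 ± 0.27). Each of the 3 was called without the block and with DESeq2, and the libraries of the 2 sets were far apart. Izumo1r, the folate receptor 4 gene that marks regulatory T cells in mice, was 5.88 ± 0.49 higher, and Itgb8, an integrin chain that releases active TGF-beta, 5.34 ± 0.44. Il10, an inhibitory cytokine also made by myeloid cells, stood at 110 and 72.9 CPM in CD4 T cells and 10.1 and 9.52 CPM in the others (2.90 ± 0.41).

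All 9 co-stimulatory receptor genes tested were called higher, with a median of 4.08. Icos stood at 994 and 929 CPM in CD4 T cells, against 32.6 and 12.1 CPM in all other cells (5.23 ± 0.26, edgeR adjusted p = 2.1e-84), and 41 of 48 and 17 of 19 members had a UMI of it. The TNF receptor family members followed. Tnfrsf4 (OX40) was 5.15 ± 0.28 higher on the log2 scale, Tnfrsf18 (GITR) 4.22 ± 0.27 and Tnfrsf9 (4-1BB) 2.47 ± 0.23. Cd28, the receptor for the first co-stimulatory signal, was 4.69 ± 0.29 higher. Cd40lg, the helper ligand for B cells and dendritic cells, was 3.82 ± 0.71 higher at only 38.6 and 48.6 CPM. Icos and the 3 TNF receptor genes are also on the regulatory list.

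**Figure D2:**
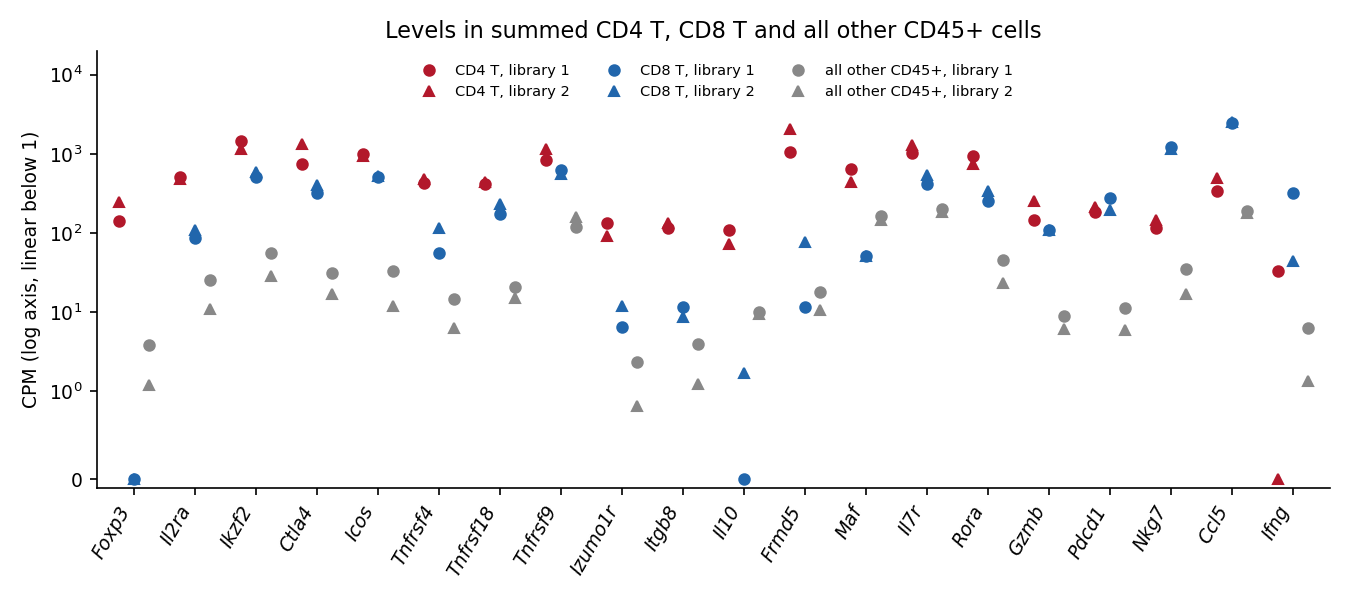
CPM (vertical axis, log scale, linear below 1) of 20 genes in the summed CD4 T cells, CD8 T cells and all other CD45+ cells, with circles for library 1 and triangles for library 2. Regulatory and co-stimulatory genes such as Foxp3, Ikzf2 and Icos lie highest in CD4 T cells in both libraries, while Nkg7 and Ccl5 lie highest in CD8 T cells.

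Some genes of several helper programs were higher in the summed members. The sums do not show whether the same cells carried them, nor whether those were helper or regulatory cells. Of the 11 Th1 genes tested, 5 were higher and 0 lower, with a median of 1.82, among them the chemokine receptor gene Cxcr3 (4.68 ± 0.70) and the signal transducer gene Stat4 (2.26 ± 0.24). The Th2 regulator Gata3, also expressed in regulatory T cells, was 4.21 ± 0.59 higher at 71.2 and 60.7 CPM in CD4 T cells, against 4.21 and 1.59 CPM in the others. Rora, a nuclear receptor of Th17 and tissue regulatory cells, stood at 943 and 741 CPM in CD4 T cells, against 45.3 and 23.6 CPM (4.31 ± 0.25). Of 7 follicular helper genes, 3 were higher, Maf, Slamf6 and Sh2d1a, and 1 lower, Bcl6. Maf was 1.43 ± 0.23 higher, with an edgeR adjusted p of 0.056 without the block.

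The cytokines that name these programs were nearly undetected. No UMI of Il4, Il5, Il13, Il2, Il21, Il17f or Il22 was found in the 67 members, which allows up to 5.98 CPM over both libraries. Il17a had 2 UMIs, and Ifng had 11 UMIs in library 1, from 6 cells, and 0 in library 2.

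Both naive-type and exhaustion-type genes were carried. Of 11 genes of naive and recirculating T cells, 6 were higher and 1 lower (Klf2), with a median of 1.43. Lef1, a transcription factor of naive T cells, stood at 148 and 225 CPM in CD4 T cells, against 11.0 and 5.02 CPM in the others (4.21 ± 0.34). Il7r, the interleukin-7 receptor chain, stood at 1032 and 1299.8 CPM in CD4 T cells, against 200 and 185 CPM (2.23 ± 0.22). Of 12 inhibitory receptor genes, 6 were higher and 1 lower (Vsir), with a median of 1.35. Pdcd1 (PD-1) was 4.18 ± 0.32 higher and Tox, a regulator of exhausted T cells, 4.14 ± 0.26. Gzmb, the protease granzyme B, was 4.34 ± 0.33 higher at 145 and 255 CPM in CD4 T cells, against 8.83 and 6.09 CPM, with UMIs in 14 and 7 members.

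Frmd5 (mm10 2:121545529-121807087, minus strand), a FERM domain protein gene, had the smallest p of all genes outside the gate. It stood at 1056 and 2047 CPM in CD4 T cells, against 18.2 and 10.8 CPM in all other cells, 6.36 ± 0.26 higher (edgeR adjusted p = 5.6e-124, and 0.032 without the block). Its UMIs came from 17 and 10 members, and the cell with most of them held 27.2% and 23.1%. Among genes named by size alone, Tctex1d1 (7.0 ± 1.09), Ccn4 (6.15 ± 0.86) and Trib2 (5.03 ± 0.79) were higher at 23.7 to 103 CPM in CD4 T cells. Ntrk3 was 5.08 ± 0.77 higher, but 72.5% of its 40 UMIs in library 1 came from 1 cell and library 2 had 1 UMI.

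Metabolic, stress and cycling genes lay lower in CD4 T cells than in the summed other tumor leukocytes, whose UMIs came mostly from phagocytes. The calls depended on the fit. Of 18 glycolysis genes tested, 12 were lower and 0 higher, with a median of -0.93. Without the block 1 was lower, with DESeq2 6, and with no limit on C1q 11. The glucose transporter gene Slc2a1 stood at 92.0 and 79.0 CPM in CD4 T cells, against 159 and 186 CPM in all other cells (-1.32 ± 0.29). Hk2, encoding hexokinase 2, stood at 89.0 and 18.2 CPM in CD4 T cells, against 158 and 170 CPM (-1.81 ± 0.32). For Hk2 the libraries of CD4 T cells stood far apart, and both lay below the other cells. Pgam1, a later enzyme of the pathway, was -1.29 ± 0.23 and the only glycolysis gene called without the block (adjusted p = 0.041).

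Of 19 hypoxia response genes, 7 were lower and 0 higher, with a median of -0.77, and none was called without the block or with DESeq2. Vegfa, the vascular growth factor, stood at 220 and 79.0 CPM in CD4 T cells, against 260 and 334 CPM in the others (-1.29 ± 0.26, edgeR adjusted p = 2.4e-05, and 0.20 without the block). Of 17 immediate early and heat shock genes, 13 were lower and 0 higher, with a median of -0.99, but 2 were lower without the block, 7 with DESeq2 and 6 with no limit on C1q. Hspa1a, an inducible HSP70 chaperone, had 6 UMIs in 2 members of library 1 and 0 in library 2. That was 17.8 and 0 CPM in CD4 T cells, against 108 and 124 CPM (-3.62 ± 0.46).

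Of 18 proliferation genes, 6 were lower and 0 higher, with a median of -1.25. None was called without the block, 2 with DESeq2 and 1 with no limit on C1q. Mki67, the Ki-67 gene, stood at 50.4 and 6.07 CPM in CD4 T cells, against 67.2 and 55.9 CPM in the others, and its log2 fold change of -1.27 ± 0.40 became 0.14 with no limit on C1q. It had a UMI in 3 of 48 and 1 of 19 members, and 15 of the 17 UMIs of library 1 lay in 1 cell, the deepest member at 26258 UMIs.

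The interferon-stimulated list was mixed, with 3 of 22 genes higher, 3 lower and a median of 0.02. Cxcl10, a chemokine gene, was -2.50 ± 0.40 with UMIs in 1 member.

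**Figure D3:**
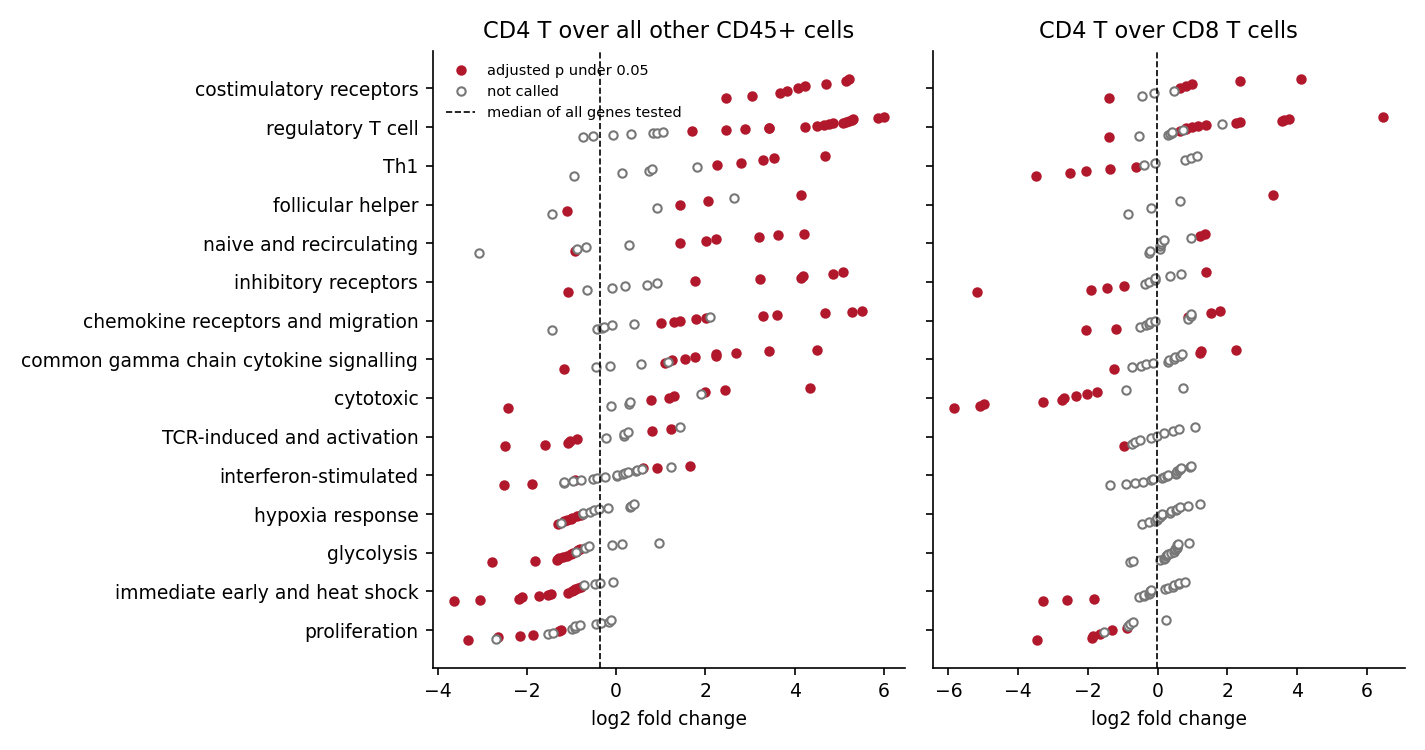
Log2 fold change (horizontal axis) of the genes of 15 lists, for CD4 T cells over all other CD45+ cells (left) and over CD8 T cells (right), each point a gene with UMIs in both sets, filled where the edgeR adjusted p is under 0.05, with a dashed line at the median of all genes tested. Costimulatory and regulatory genes lie mostly right of the line in both panels, glycolysis genes mostly left of it in the left panel, and cytotoxic genes mostly left of it in the right panel.

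RNA of other cell types lay beside these values. The 9 macrophage markers outside the gate were all detected in the members, at a summed 5554 and 2253 CPM in CD4 T cells, against 22164 and 25493 CPM in all other cells and 2981 and 2427 CPM in CD8 T cells. All 9 were called lower, 3 without the block and 4 with no limit on C1q. The gate limits the macrophage genes of C1q, so these lower values go with the gate and are given as description only. Apoe, a lipid carrier made by macrophages, stood at 2228 and 449 CPM in CD4 T cells, against 12176 and 13427 CPM in the others. Dendritic cell markers summed to 3062 and 9852 CPM in CD4 T cells, 1164 and 2017 CPM in CD8 T cells and 3867 and 3258 CPM in all other cells. Of 8 neutrophil markers outside the gate 6 were detected, with Ly6g and G0s2 at 0 UMIs, and their sum was 656 and 1014 CPM in CD4 T cells, 241 and 491 CPM in CD8 T cells and 1019 and 1173 CPM in all other cells. Of 8 microglia markers 7 were detected, with Sall1 at 0, at a summed 323 and 371 CPM in CD4 T cells, against 822 and 994 CPM in all other cells. Of 8 NK cell markers 2 were detected, at a summed 53.4 and 134 CPM in CD4 T cells, against 101 and 71.6 CPM in all other cells. All 7 B cell markers were detected (148 and 54.7 CPM, against 128 and 35.8 CPM). So were all 8 monocyte markers (3139 and 2721 CPM, against 6194 and 5864 CPM). Platelet markers summed to 119 and 6.07 CPM, against 28.9 and 53.9 CPM. None of the mast cell and erythroid markers was detected. Most of the markers at 0, G0s2 apart, were also rare in all other cells, so their absence tells little at this depth. The part of RNA of these cell types in the results was not tested beyond the change of C1q limit.

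CD8 T cells of the same libraries, 114 and 60 cells with medians of 5495.5 and 7475.5 UMIs, passed the same CD3 gate, so this comparison does not turn on T cell identity. Of 6638 genes, 8.35% were called, 4.14% higher and 4.2% lower in CD4 T cells, 275 and 279 genes, and the median log2 fold change was -0.01. This count was unstable. It was 77 without the library block and 88 by the DESeq2 Wald test. It was 362 with likely doublets removed and 288 without the barcodes shared with another library, 1 of them a member and the others among the remaining cells. With only the 36 members that had no C1q UMI it was 0 of 3342 genes, where 410 had an unadjusted p under 0.05. In this comparison each changed C1q limit applied to the CD8 T cells as well.

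The regulatory program separated CD4 T cells from CD8 T cells in part. Of 21 genes tested, 13 were higher in CD4 T cells and 1 lower, with a median of 1.00. Foxp3 had 87 UMIs in CD4 T cells and 0 in CD8 T cells, 78.8-fold higher by CPM against 3 counts over the CD8 set. The lower limit of its 95% counting interval was 62.7-fold. Il10 had 49 UMIs in CD4 T cells and 1 in CD8 T cells, a ratio of CPM of 133 (95% counting interval 22.8 to 5365). Frmd5 stood at 1056 and 2047 CPM in CD4 T cells, against 11.5 and 77.2 CPM in CD8 T cells (5.26 ± 0.26, edgeR adjusted p = 1.3e-85, and 0.0092 without the block). For these 3 genes each CD4 library lay far above each CD8 library.

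Il2ra stood at 507 and 474 CPM in CD4 T cells, against 87.1 and 108 CPM in CD8 T cells (2.26 ± 0.27). Tnfrsf4 stood at 421 and 474 CPM in CD4 T cells, against 56.4 and 117 CPM (2.37 ± 0.28). Both were called without the block and with DESeq2. Ctla4 and Ikzf2 were well represented in CD8 T cells too. Ctla4 stood at 748 and 1342 CPM in CD4 T cells, against 315 and 405 CPM (1.40 ± 0.21, adjusted p without the block 0.074), and Ikzf2 at 1457 and 1148 CPM, against 509 and 585 CPM (1.17 ± 0.19, without the block 0.055). Icos, 0.81 ± 0.20 higher, and Tnfrsf18, 1.00 ± 0.25 higher, lost the call without the block (adjusted p 0.15 for each) and with DESeq2 (0.12 and 0.19).

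Other genes higher in CD4 T cells fell outside the regulatory list. Maf stood at 644 and 437 CPM in CD4 T cells, against 51.3 and 51.5 CPM in CD8 T cells (3.31 ± 0.29, edgeR adjusted p = 6.1e-27). It had UMIs in 19 of 20 and 12 of 12 members with a Foxp3 UMI, against 19 of 28 and 1 of 7 without. For Rora these counts were 17 and 10 against 24 and 4, and for Il7r 18 and 11 against 24 and 7. Rora (1.44 ± 0.22), Il7r (1.21 ± 0.20) and the chemokine receptor gene Ccr2 (1.53 ± 0.30) were higher too, with Il7r at an adjusted p of 0.066 without the block and Ccr2 at 0.076 with DESeq2. Ccr2 is also a monocyte marker, and in this comparison Fn1 of the monocyte list and Csf1r, Pf4 and Lyz2 of the macrophage list were called higher and Ly6c2 of the monocyte list lower. Of 8 macrophage markers tested 7 were positive, with a median of 0.72, and the part of such RNA in the Ccr2 value was not tested. Cd40lg had 21 UMIs in CD4 T cells and 3 in CD8 T cells, a ratio of CPM of 19.02 (interval 5.68 to 99.6). Dst, a cytoskeletal linker gene, was 3.89 ± 0.47 higher and Rapsn, known from the muscle synapse, 4.05 ± 0.53.

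**Figure D4:**
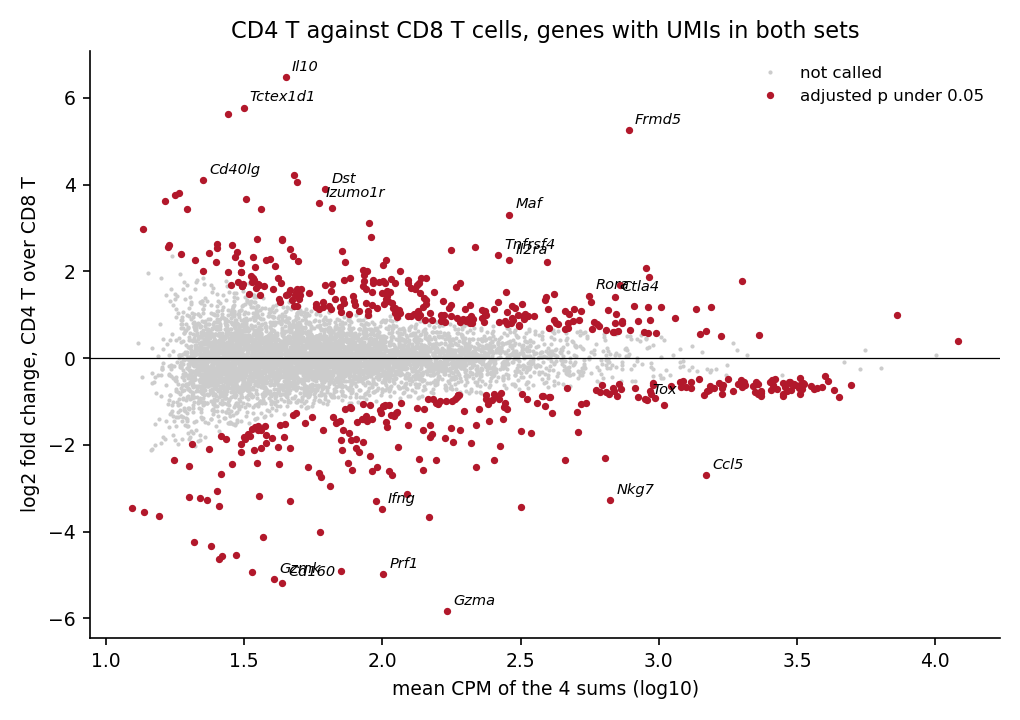
Log2 fold change of CD4 T over CD8 T cells (vertical axis) against the mean CPM of the 4 sums (horizontal axis, log10) for genes with UMIs in both sets, in red where the edgeR adjusted p is under 0.05. Frmd5, Il10, Maf and Il2ra lie above 0, and Gzma, Prf1, Nkg7 and Ccl5 below it.

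Cytotoxic genes lay on the other side, with 10 of 12 lower in CD4 T cells, 0 higher and a median of -2.72, or -2.62 with genes at 0 UMIs set to their bound. Of these, 7 were lower without the block and 5 with DESeq2. Nkg7, a granule membrane protein gene, stood at 116 and 146 CPM in CD4 T cells, against 1205 and 1132 CPM in CD8 T cells (-3.27 ± 0.24, edgeR adjusted p = 3.1e-37, and 0.0017 without the block). The chemokine gene Ccl5 stood at 341 and 492 CPM in CD4 T cells, against 2469 and 2486 CPM (-2.69 ± 0.18). Gzma had 3 UMIs in CD4 T cells and 453 in CD8 T cells, a ratio of CPM, CD8 over CD4, of 55.6 (interval 18.9 to 271), and the pore protein gene Prf1 had 3 UMIs in CD4 T cells and 258 in CD8 T cells (31.7, interval 10.7 to 155). Eomes, a factor of cytotoxic memory, had 0 UMIs in CD4 T cells and 48 in CD8 T cells. That was 5.89-fold lower against 3 counts over the CD4 set, with a lower interval limit of 4.61. Gzmf, a granzyme gene, had 0 UMIs in CD4 T cells and 883 in CD8 T cells, 108-fold lower by the same measure, with a lower limit of 87.9. Gzmb was the exception among granzymes, at 145 and 255 CPM in CD4 T cells, against 108 and 110 CPM in CD8 T cells (0.72 ± 0.30, adjusted p = 0.13, called in 0 of 9 alternatives).

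Th1 genes followed the cytotoxic list, with 5 of 10 lower, 0 higher and a median of -0.51. Of these genes 2 were lower without the block, 3 with DESeq2, 3 without shared barcodes and 0 with C1q at 0 UMIs. Ifng stood at 32.6 and 0 CPM in CD4 T cells, against 319 and 44.6 CPM in CD8 T cells (-3.48 ± 0.46, adjusted p without the block 0.20). The CD4 value of library 1 lay close to the CD8 value of library 2. Il12rb2, the interleukin-12 receptor chain, stood at 86.0 and 42.5 CPM in CD4 T cells, against 377 and 347 CPM (-2.51 ± 0.32). The tissue-homing receptor gene Cxcr6 was -2.05 ± 0.36. Of 11 inhibitory receptor genes, 1 was higher (Ctla4) and 4 were lower. Cd160 had 1 UMI in CD4 T cells and 109 in CD8 T cells, Lag3 was -1.44 ± 0.37 and Tox -0.97 ± 0.20, the last 2 not called without the block. Pdcd1 stood at 184 and 213 CPM in CD4 T cells and 277 and 196 CPM in CD8 T cells (-0.36 ± 0.28, adjusted p = 0.59).

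The metabolic lists, lower in the comparison with all other leukocytes, held no called gene in this one. Glycolysis had 0 of 17 called, with a median of 0.39, and hypoxia response 0 of 15, with a median of 0.14. Of 11 proliferation genes 6 were lower, with a median of -1.31. Mki67 was -1.65 ± 0.41 and Stmn1, a tubulin regulator of dividing cells, -1.88 ± 0.40, but with no limit on C1q the values were 0.036 and -0.13, and neither was called without the block.

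Genes of ribosomal proteins, a group chosen after its values were seen, made up 70 of the 279 lower calls. Of 87 tested, 83 were negative and 0 higher, with a median of -0.63. They took 14.0% and 14.6% of UMIs in CD4 T cells, against 19.6% and 22.6% in CD8 T cells, with no overlap between the sets. None was called without the block, 12 were lower with DESeq2 and 2 with no limit on C1q.

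Class II genes were higher in CD4 T cells than in CD8 T cells, but from few cells. Cd74, the invariant chain, was 1.77 ± 0.16 higher and H2-Ab1 1.87 ± 0.20, with adjusted p of 0.085 and 0.10 without the block. Their UMIs lay in 18 and 6 members for Cd74 and 11 and 5 for H2-Ab1, and the highest cell held 25.8% and 40.5% of Cd74. The dendritic cell genes Xcr1 and Clec9a were seen in 1 member of library 2.

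The 32 members with a Foxp3 UMI were last set against the 35 without, within libraries. The 20 and 12 positive cells had median depths of 5430 and 5758 UMIs, and the 28 and 7 negative cells 4538.5 and 5526. Of 3039 genes tested, 0 were called by edgeR at an adjusted p under 0.05, a share of 0%. At an unadjusted p under 0.05 there were 162 genes (5.33%), 86 higher (2.83%) and 76 lower (2.5%), and DESeq2 called 0. With no filter on low counts 61 genes were called, with likely doublets removed 52, and with no limit on C1q 85 of 7269.

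Single cells with a Foxp3 UMI mostly carried Ikzf2, Il2ra and Ctla4 together. Ikzf2 had a UMI in all 20 and all 12 Foxp3-positive members, against 12 of 28 and 2 of 7 Foxp3-negative ones. Il2ra had a UMI in 19 and 12 of the Foxp3-positive members, against 9 and 0 of the Foxp3-negative ones. All of Il2ra, Ikzf2 and Ctla4 were seen in 18 of 20 and 12 of 12 Foxp3-positive members, against 6 of 28 and 0 of 7 Foxp3-negative members. The number of members with no UMI of any of the 3 was 0 and 0 among Foxp3-positive and 8 and 2 among Foxp3-negative cells. In library 1, then, 6 members without a Foxp3 UMI still carried UMIs of all 3 genes. Other genes of the regulatory list did not all follow Foxp3. Tnfrsf18, Nrp1 and Batf were seen in a smaller share of Foxp3-positive than Foxp3-negative members in library 1. In library 2 their share was larger. Icos, Tnfrsf4, Tnfrsf9, Tigit, Izumo1r and Il10 were seen in a larger share of Foxp3-positive members in both libraries.

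**Figure D5:**
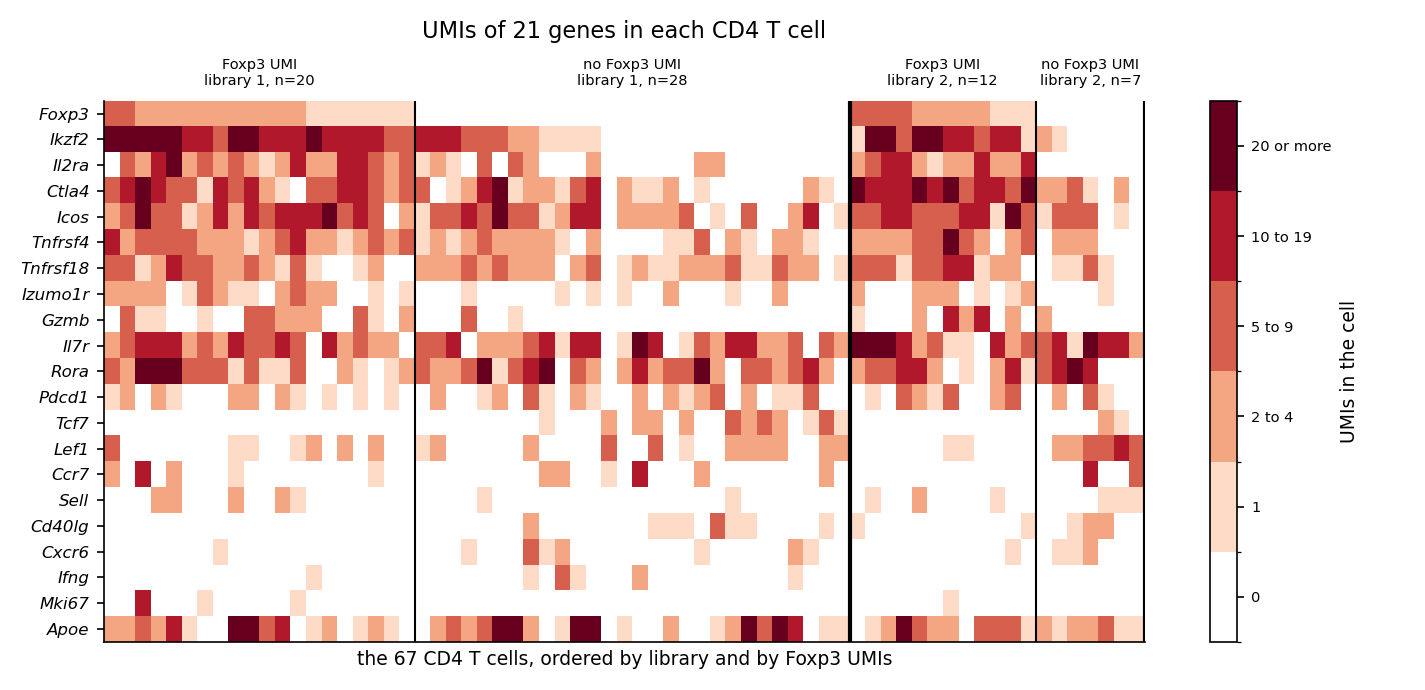
UMIs (colour, in classes from 0 to 20 or more) of 21 genes (rows) in each of the 67 CD4 T cells (columns), ordered by library, by whether a Foxp3 UMI was seen and by its number. Ikzf2 fills every Foxp3-positive column, and Tcf7 has no UMI in any of them.

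In the sums, Ikzf2 stood at 2649 and 1666 CPM in Foxp3-positive members, against 426 and 56.6 CPM in Foxp3-negative members (log2 difference 3.39 ± 0.54, adjusted p = 0.47). Frmd5 stood at 2092 and 3019 CPM in Foxp3-positive members, against 160 and 0 CPM (4.86 ± 0.91, adjusted p = 0.47), with a UMI in 13 and 10 positive and 4 and 0 negative cells. Gzmb stood at 269 and 349 CPM in Foxp3-positive members, against 38.7 and 56.6 CPM (2.67 ± 0.52, adjusted p = 0.47). The libraries of the 2 sets did not overlap for any of these genes. With 2 sums per set that carries little weight, and the share of all genes without overlap was not counted. Each was called in 3 of 10 alternatives. These were no filter on low counts, likely doublets removed and no limit on C1q, which called 61, 52 and 85 genes. The other alternatives called 0 genes. Of the 16 regulatory genes tested 13 had positive values, with a median of 0.76 against 0.03 for all genes. The 3 dendritic cell markers tested were positive too, with a median of 1.74. All markers of that list summed to 5886 and 8815 CPM in Foxp3-positive members, against 620 and 12036 CPM in Foxp3-negative members, so that the order differed between libraries, and their part in the regulatory values was not tested. Ctla4 was at 1.88 ± 0.45, Tnfrsf9 at 1.95 ± 0.38 and Tnfrsf4 at 1.66 ± 0.43 (adjusted p of 0.63, 0.47 and 0.63). Icos, at 0.79 ± 0.36 and an adjusted p of 0.98, and Tnfrsf18, at 0.57 ± 0.47, were found in both kinds of cell.

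The naive list ran the other way, with 0 of 8 genes positive and a median of -1.87. Tcf7, a transcription factor of naive and memory T cells, had 0 and 0 UMIs in Foxp3-positive members and 36 and 5 in Foxp3-negative members, from 12 and 2 cells. That was at least 15.7-fold lower against 3 counts over the positive set, with an adjusted p of 0.47. Lef1 stood at 96.0 and 17.9 CPM in Foxp3-positive members, against 194 and 660 CPM (-2.58 ± 0.89, adjusted p = 0.83). Stat4 stood at 250 and 134 CPM in Foxp3-positive members, against 703 and 1339 CPM (-2.36 ± 0.52, adjusted p = 0.52). Cd40lg had 0 and 2 UMIs in Foxp3-positive members, against 13 and 6 in Foxp3-negative members.

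When the cells with 3 or more C1q UMIs were let in, which brings the set to 159 cells, 8 of 20 regulatory genes were called higher and 0 lower, and 4 of 10 naive genes lower and 0 higher. Of all 7269 genes tested with that setting, 45 were called higher and 40 lower. In that larger set Ikzf2 was 2.11 higher (adjusted p = 6.5e-07), Frmd5 2.87 (3.1e-08) and Il2ra 2.91 (2.1e-06) higher, Stat4 was -1.62 (1.7e-04), and Tcf7 was called lower (5.7e-06). This set holds all 67 members, so its calls are not separate evidence.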

How the data were processed

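The 6 mouse libraries of 10x 3' single-cell RNA sequencing were deposited, and the 2 CD45+ tumor libraries were analysed. The authors deposited UMI counts for each gene and cell; the submitters' processing notes name Cell Ranger 7.1.0 and mm10, and no annotation is named in the labels. Coordinates come from GENCODE vM21. The members and gene lists were chosen with earlier results of these data known.

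Counts were summed per library and cell set and tested with edgeR 4.0.16 (TMM, filterByExpr, quasi-likelihood, Benjamini-Hochberg, called at 0.05; R 4.3.3), with the library as a block, since both sums of a pair come from the same library. Gate genes, and Foxp3 in the last comparison, stayed out of the calls. CPM use unscaled totals, and fold changes use TMM totals. The ± is an SE of the log2 fold change derived from the edgeR test statistic. It draws on variance estimates shared across genes and is not the spread between the library ratios. Doublets were kept; an alternative removed the 700 and 607 highest Scrublet scores (scanpy 1.11.5), since the automatic threshold called 0 cells. Thinning used expected shares. DESeq2 1.42.0 was an alternative. On simulated data, recovery of 2-fold and 4-fold changes was 8.14% and 39.5% for the comparison with all other cells (15472 genes). For CD8 T cells it was 8.82% and 70.4% (6638 genes), and for the Foxp3 comparison 4.85% and 41.2% (3039 genes). In that order, true and estimated changes of the changed genes correlated at 0.54, 0.96 and 0.94. The simulation gave all genes the same variance setting, means pooled over both sets and no library effect, so recovery in the real data may differ. Beyond the lists, named genes were the 12 with the largest rise and the 12 with the largest fall among called genes that moved the same way in both libraries and had at least 50 CPM in the higher set. A gene at 0 UMIs in a set was bounded against 3 counts over the set, which leaves out the counting error of the other set. Some items are not reported here.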

Additional observations from a re-analysis of the deposited data

How the results depend on the processing

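Against all other CD45+ cells, where 2037 genes were called, 551 were called with no replicate block and 1045 with DESeq2. Against CD8 T cells, where 554 were called, the count was 77 with no replicate block, 88 with DESeq2, 362 with likely doublets removed, 288 without shared barcodes and 0 with C1q at 0 UMIs, where fewer cells and genes were tested. For Foxp3-positive against Foxp3-negative members, where 0 were called, it was 0 with no replicate block, 61 with no filter, 52 with likely doublets removed and 85 with no limit on C1q. The cause of these shifts was not tested. The number of members was 36 with C1q at 0 UMIs, 159 with no limit and 19 to 48 by single library. The Foxp3 share, a mean of 19.3% over libraries at 1000 UMIs, was 31.3% at 2000 UMIs, 52.4% unthinned and 13.5% to 25.2% by single library. Signs reversed for Mki67 with no limit on C1q, to 0.14 against all other cells and 0.036 against CD8 T cells, and in the Foxp3 comparison for Tnfrsf18 without library 2 (-0.067, and 1.48 without library 1) and Trac with C1q at 0 UMIs (-0.43). Leaving out a library leaves 1 sum per set, a value with no test. The settings with no limit on C1q and without shared barcodes were chosen after seeing the data. The smallest sum tested was that of the Foxp3-negative members of library 2, with 53007 UMIs.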

Other observations

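Trdc, the constant gene of the delta chain, had 3 UMIs in 2 members of library 1 and 0 in library 2. Variable segment genes were rarely captured by the 3' assay, with 9 and 2 UMIs of Trav genes and 7 and 2 of Trbv genes in libraries 1 and 2, so clonal relations could not be read. Itgae, the CD103 integrin chain of tissue-resident cells, had 14 and 5 UMIs in Foxp3-positive members, from 6 and 3 cells, and 0 and 0 in Foxp3-negative members. Tnfsf11, which encodes RANKL, had 0 and 2 UMIs in Foxp3-positive members and 55 and 4 in Foxp3-negative members. Mki67 had 17 and 1 UMIs in Foxp3-positive members, from 3 and 1 cells, and 0 and 0 in Foxp3-negative members, with 15 of the 17 in 1 cell. These 3 genes were picked after their values were seen and were not tested as a group.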
